A study of Arabidopsis thaliana with 12 samples.

Results

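Wild-type Arabidopsis thaliana seedlings of the Col-0 accession, 5 days old, were compared after growth with and without abscisic acid (ABA). The comparison holds 19095 genes of 33201 rows, chosen as the rows that the authors' deposited table marks as tested and that reach 1 FPKM (fragments scaled to gene length and to the number of mapped fragments) in at least 1 of the groups. The series has 12 RNA-seq libraries: 3 of untreated Col-0 on MS medium, 3 of Col-0 on MS medium with ABA, and the same pair of groups for nup1-1, a mutant of a nuclear pore gene. Whole seedlings were used, and the labels give neither the ABA dose nor whether libraries came from separate plates, so the spread behind the p-values may be technical. Seedlings grew on ABA throughout, as far as the labels tell, so a difference in developmental stage and a direct response cannot be told apart. The deposited table has 1 value per group, taken as FPKM although the unit is not named there, so no value per library is given. Of the remaining rows, 12872 were not tested, 38 of them despite reaching 1 FPKM, and 1234 were tested but stayed below 1 FPKM in both groups.

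ABA is the hormone that land plants make when water is short and that holds seeds in dormancy. Its receptors, on binding the hormone, block a group of protein phosphatases, which frees SnRK2 kinases to act on transcription factors such as ABI5. In germinating seeds and young seedlings, added ABA is known to halt growth and greening and to keep genes of the seed programme active. Processes other than these are described here: pigments, sugars, mineral nutrients, defence compounds, light and clock factors, redox proteins and other hormones.

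By the authors' deposited table, a total of 1529 genes were higher with ABA and 1527 were lower at a deposited q under 0.05, and those genes are called changed throughout. This is 8.01% of the genes in the upward and 8.0% in the downward direction, or 16.0% in all. Counts of called genes in lists and families are to be read beside these shares. Changes are given as log2((ABA + 1)/(untreated + 1)) of the FPKM values, which understates the change of genes with low values. The median over all genes was -0.02, and the middle 90% of genes lay between -0.83 and 0.88. The standard error (SE) after a ± sign is that of the plain log2 ratio, rebuilt from the deposited statistic. It is at least as large as the error on the scale with 1 added, and it is left out where a group was below 1 FPKM. Its median was 0.23 over all genes. Genes named beyond the rule given under processing were chosen after their values were seen. The smallest q in the table is 0.00072, shared by 1419 tested genes. Called genes given with Col-0 FPKM values and no q have that smallest value.

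The balance of higher and lower calls moved with the level of a gene. Among 4448 genes whose higher group lay between 1 and 5 FPKM, 8.52% were called higher and 5.8% lower. Among 1836 genes at 100 FPKM or more, 8.71% were called higher and 20.3% lower, so abundant transcripts fell more often than rare ones. Summed over all included genes, FPKM was 1090265 untreated and 901447 with ABA. The part of this difference in totals in the trend was not tested. Just inside the limit for inclusion lay AT3G26350 with 0.6928 FPKM untreated and 1.0005 FPKM with ABA, AT2G46495 with 1.0008 and 0.7831 FPKM, and AT4G11990 with 0.954 and 1.0011 FPKM. Just outside it lay NAT7 with 0.9053 and 0.9999 FPKM, AT4G36150 with 0.9859 and 0.9988 FPKM, and SAP10 with 0.6052 and 0.9985 FPKM. Below the limit 118 further rows were called and are not counted.

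**Figure D1:**
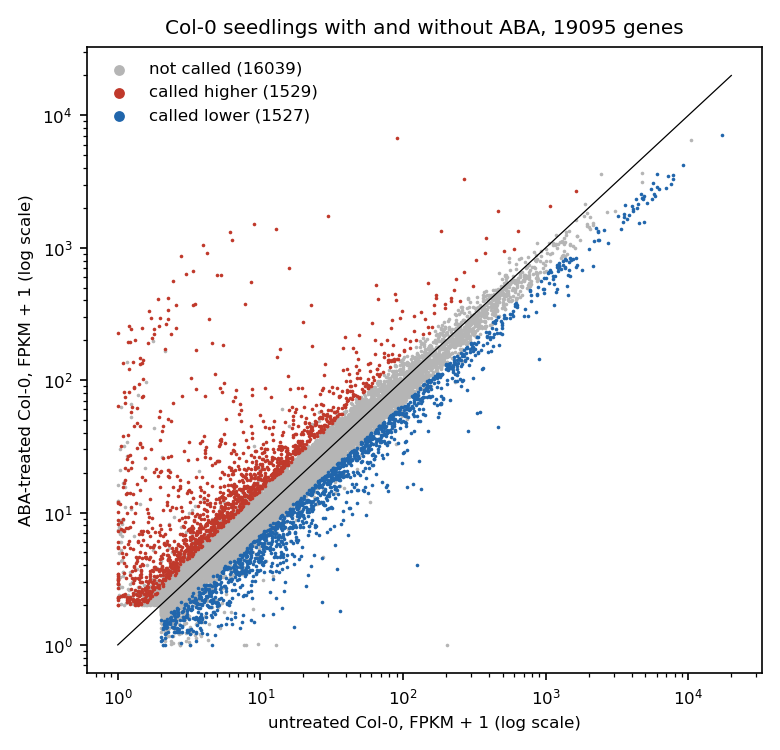
Each point is 1 of the 19095 genes, with FPKM + 1 in untreated Col-0 on the horizontal and in ABA-treated Col-0 on the vertical log axis. Red points are the 1529 genes called higher and blue points the 1527 called lower, grey points were not called, and the line marks equal values.

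The tissue matched its label. All 8 shoot and leaf markers were at 1 FPKM or more in both groups, 6 of 8 root markers were so untreated and 7 with ABA, and none of 5 flower and pollen markers was. The flower and pollen markers summed to 0.896 FPKM untreated and 0.309 FPKM with ABA, with the pollen gene VGD1 listed at 0 in both. Of the shoot and leaf markers 1 was called higher and 3 lower. Their summed level was 5940 FPKM untreated and 3420 FPKM with ABA. RBCS2B alone, called lower (q = 0.018), gave 5660 and 3100 FPKM of it. Of the other called shoot markers, PDF1 rose from 111 to 195 FPKM (q = 0.0044). FAMA fell from 15.6 to 7.34 FPKM and SUC2 from 81.3 to 52.4 FPKM (q = 0.028). Root markers summed to 104 and 93.4 FPKM, with 1 of 8 called lower. Markers of endosperm and seed summed to 8.9 FPKM untreated and 2120 FPKM with ABA, and 5 of 6 were called higher. Most of the sum with ABA came from CRA1, TIP3;1 and OLEO1, with 1310, 410 and 374 FPKM. EPR1 (AT2G27380) had 20.6 FPKM with ABA and EXPA2 had 6.64 FPKM (q = 0.019). ZOU, a regulator of endosperm breakdown, was near or at 0 in both groups. The part of these marker shifts in the results below was not tested. In RNA from whole seedlings, fewer cells of a type and less RNA per cell cannot be told apart.

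Sequences before the start of the gene were read from the TAIR10.1 genome for 18424 of the genes, as 300 bases upstream of the RefSeq gene start, to show what the called genes carry there. The core ACGTG of ABA-responsive elements, on either strand, was in 40.3% of the windows of genes called higher, in 26.4% of those called lower and in 26.7% of all windows. The palindrome CACGTG, which contains that core and is counted again within it, was in 17.3%, 7.09% and 8.32%. The seed motif CATGCATG was in 1.75% of windows of genes called higher and in 0.825% of all. TGGGCC, common before genes of protein synthesis, went the other way, with 10.7% of genes called higher, 10.4% of genes called lower and 17.6% of all. CCGAC was in 15.1% of all windows, in 15.3% of genes called higher and in 12% of genes called lower, and TTGAC in 50.2%, 51.7% and 49.4%. GATAAG was in 14.5% of all windows, in 15.9% of genes called higher and in 16.5% of genes called lower. AAACCCTA was in 4.18%, 2.36% and 2.68% of windows in the same order. A match is a description of letters and not of a bound site.

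Printed next are 3 genes called higher from the phenylpropanoid, flavonoid and anthocyanin list. They have the largest rise among those that hold ACGTG (or CACGT, its reverse complement) within 250 bases of the start. The sequences run 5′ to 3′ toward the gene and end at the base before its start, with the motif in capitals. The DFR window is chr5:17166033-17166282 on the minus strand, that of UF3GT chr5:21938397-21938646 on the minus strand and that of TT8 chr4:6181631-6181880 on the plus strand.
DFR: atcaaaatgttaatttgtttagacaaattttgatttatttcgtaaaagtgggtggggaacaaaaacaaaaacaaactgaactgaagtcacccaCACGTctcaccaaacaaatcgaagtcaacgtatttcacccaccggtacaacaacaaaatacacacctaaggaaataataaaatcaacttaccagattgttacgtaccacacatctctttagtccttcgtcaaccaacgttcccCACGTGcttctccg
UF3GT: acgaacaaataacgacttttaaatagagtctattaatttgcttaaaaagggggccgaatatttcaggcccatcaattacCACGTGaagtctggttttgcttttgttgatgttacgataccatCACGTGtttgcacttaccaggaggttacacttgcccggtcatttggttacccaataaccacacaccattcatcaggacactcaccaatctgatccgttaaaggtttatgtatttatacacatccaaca
TT8: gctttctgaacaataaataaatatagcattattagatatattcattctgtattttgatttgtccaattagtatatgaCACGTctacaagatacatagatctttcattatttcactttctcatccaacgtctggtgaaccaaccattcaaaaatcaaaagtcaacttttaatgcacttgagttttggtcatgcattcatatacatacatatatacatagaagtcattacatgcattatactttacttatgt
In DFR the motif occurs at 157 bases before the start and as a palindrome that begins 14 bases before it, and UF3GT has 2 palindromes, at 171 and 128 bases. TT8 has a single match at 173 bases. Of the 19 flavonoid genes called higher, 42.1% hold ACGTG in the 300 bases, against 40.3% of all genes called higher.

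Phosphate starvation genes are known to carry GNATATNC, the site of the MYB factor PHR1. That motif was added to the search after the values had been seen. It was in 5 of the 11 phosphate genes called lower, in none of the 10 phosphate genes not called and in 6.54% of all windows. The 4 called genes with the largest fall that hold it in the 250 bases, or in the shorter stretch back to the neighbouring gene, are printed with it in capitals. The SPX3 window is chr2:18606160-18606409 on the plus strand, that of PS2 chr1:27466349-27466598 on the minus strand, that of PLDP2 chr3:1634944-1635193 on the plus strand and that of MGD2 chr5:6896351-6896462 on the plus strand.
SPX3: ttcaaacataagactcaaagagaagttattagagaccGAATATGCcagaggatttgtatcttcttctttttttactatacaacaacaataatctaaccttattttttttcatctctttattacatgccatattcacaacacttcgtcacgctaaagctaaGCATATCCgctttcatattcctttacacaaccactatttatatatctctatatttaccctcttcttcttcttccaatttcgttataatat
PS2: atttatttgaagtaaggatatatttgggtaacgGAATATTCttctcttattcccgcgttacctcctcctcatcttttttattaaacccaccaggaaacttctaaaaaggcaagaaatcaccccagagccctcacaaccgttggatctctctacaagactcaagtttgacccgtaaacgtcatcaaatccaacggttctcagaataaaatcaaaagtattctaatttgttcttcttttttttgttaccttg
PLDP2: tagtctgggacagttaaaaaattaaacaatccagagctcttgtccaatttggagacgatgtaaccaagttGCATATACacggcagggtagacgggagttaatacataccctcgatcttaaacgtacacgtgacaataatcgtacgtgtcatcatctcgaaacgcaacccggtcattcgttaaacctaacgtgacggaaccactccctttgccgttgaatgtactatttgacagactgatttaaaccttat
MGD2: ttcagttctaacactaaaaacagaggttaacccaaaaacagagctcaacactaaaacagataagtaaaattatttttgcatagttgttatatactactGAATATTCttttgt
SPX3 has the motif at 213 and 90 bases before the start, PS2 at 217, PLDP2 at 180 and MGD2 at 14. No match in the 250 bases was found for PEPC1 and MGDC, which fell most.

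The evening element AAATATCT of clock genes was in 33.3% of the 12 clock genes called lower, in 25% of the 16 not called and in 5.94% of all windows. The 3 genes called lower with the largest fall among those that hold it are printed with the element in capitals. The PRR5 window is chr5:8358547-8358796 on the minus strand, that of EPR1 (AT1G18330) chr1:6308244-6308493 on the minus strand and that of CCR1 (AT4G39260) chr4:18275217-18275466 on the minus strand.
PRR5: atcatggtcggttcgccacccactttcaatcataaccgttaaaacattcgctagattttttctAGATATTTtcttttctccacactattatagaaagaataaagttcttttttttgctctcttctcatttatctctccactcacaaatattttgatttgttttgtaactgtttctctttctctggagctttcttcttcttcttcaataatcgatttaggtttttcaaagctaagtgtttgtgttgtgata
EPR1: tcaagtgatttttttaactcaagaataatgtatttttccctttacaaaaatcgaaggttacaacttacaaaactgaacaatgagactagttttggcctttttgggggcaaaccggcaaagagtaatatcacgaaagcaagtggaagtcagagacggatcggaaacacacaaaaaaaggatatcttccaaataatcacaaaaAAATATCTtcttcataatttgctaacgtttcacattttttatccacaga
CCR1: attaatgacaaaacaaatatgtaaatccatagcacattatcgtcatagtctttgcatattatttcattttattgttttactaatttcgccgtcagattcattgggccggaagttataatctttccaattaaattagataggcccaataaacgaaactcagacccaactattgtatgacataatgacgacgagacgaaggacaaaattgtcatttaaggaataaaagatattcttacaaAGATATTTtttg
The element lies 187 bases before the start in PRR5, 49 bases in EPR1 and 12 bases in CCR1.

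Flavonoids and anthocyanins are pigments made from phenylalanine. Of 32 measured genes of the phenylpropanoid, flavonoid and anthocyanin list, 19 were called higher and 3 lower, which is 59.4% higher against 8.01% over all genes, and the list median was 0.81. DFR, which makes leucoanthocyanidins, rose from 2.53 to 84.8 FPKM (log2 4.60 ± 0.26). LDOX, the next enzyme, rose from 4.39 to 80.4 FPKM (log2 3.92 ± 0.25). GSTF12, the glutathione transferase that carries anthocyanin to the vacuole, went from 4.23 to 86.1 FPKM (log2 4.06 ± 0.28). All 3 were at the smallest q and lay between 80.4 and 86.1 FPKM with ABA. The sugar-transfer enzyme UF3GT rose from 1.06 to 24.8 FPKM (log2 3.65 ± 0.29) and AT4G14090, another glucosyltransferase of the list, from 2.79 to 32.7 FPKM (log2 3.15 ± 0.50).

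Steps before the branch to anthocyanin rose by less. TT4, chalcone synthase and the most abundant transcript of the list, rose from 373 to 913 FPKM (log2 1.29 ± 0.25). F3H, the flavanone hydroxylase, rose from 82.3 to 281 FPKM (log2 1.76 ± 0.24), and TT5, chalcone isomerase, from 77.2 to 155 FPKM (log2 0.99 ± 0.23). TT7, which adds the hydroxyl group of the quercetin and cyanidin type, stood out from them with 9.75 and 86.6 FPKM (log2 3.03 ± 0.23). FLS1, which makes flavonols, rose from 157 to 251 FPKM (log2 0.67 ± 0.23, q = 0.028). At the entry to the pathway PAL2 fell from 118 to 70.2 FPKM (log2 -0.74 ± 0.23, q = 0.011) and PAL3 from 17.1 to 10.5 FPKM (log2 -0.65 ± 0.22, q = 0.015). PAL1 had 152 and 145 FPKM and C4H 150 and 174 FPKM, and neither was called.

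The regulators of these genes split. PAP1, the MYB activator of anthocyanin genes, rose from 1.08 to 9.45 FPKM (log2 2.33 ± 0.35). Its bHLH partners TT8 and GL3 rose, TT8 from 0.421 to 4.01 FPKM and GL3 from 0.671 to 2.13 FPKM, and EGL3 rose from 2.46 to 4.12 FPKM (q = 0.026). TTG1, the WD40 protein of the same complex, had 21.7 and 17.4 FPKM and was not called (q = 0.42). MYBL2, a repressor of anthocyanin genes, fell from 53.2 to 14.6 FPKM (log2 -1.80 ± 0.22). MYB90, a close relative of PAP1, went from 0.0938 to 2.55 FPKM without passing the test (q = 0.07).

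**Figure D2:**
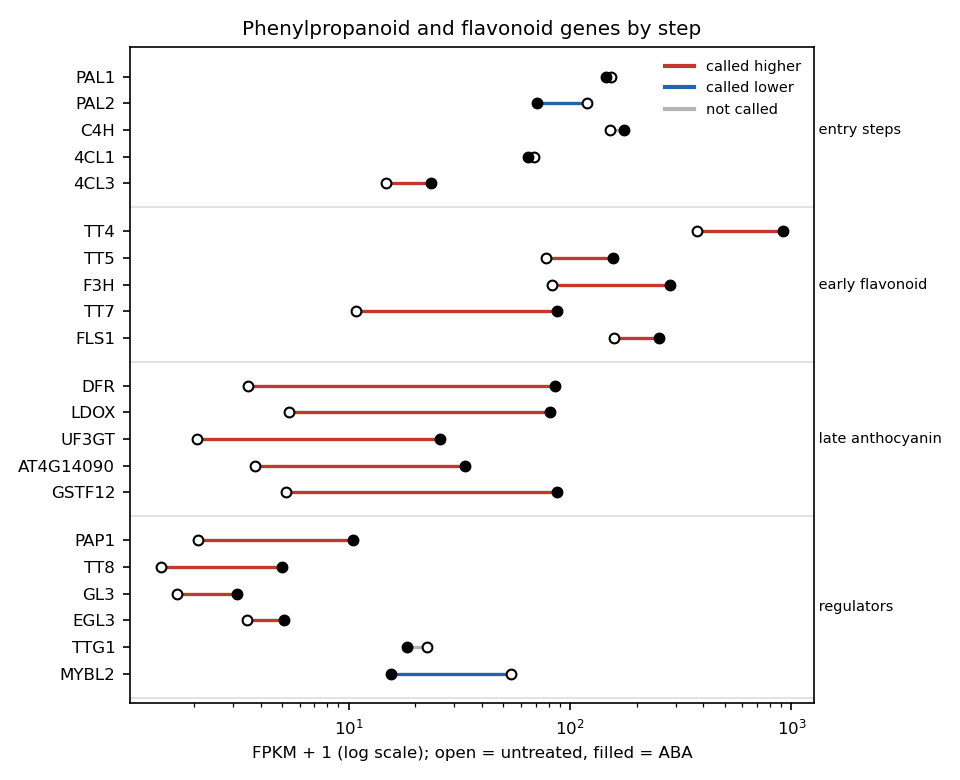
Phenylpropanoid and flavonoid genes are ordered by pathway step, with open circles for untreated and filled circles for ABA-treated Col-0 on a log axis of FPKM + 1. Line colour gives the call; the late anthocyanin genes lie below 5 FPKM untreated and between 24.8 and 86.1 FPKM with ABA.

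Sugar and starch genes moved in both directions. In starch metabolism 7 of 30 genes (23.3%) were called higher and 1 (3.33%) lower, beside 8.01% and 8.0% over all genes. The list median was -0.15. APL3, a large subunit of the enzyme that makes ADP-glucose, rose from 4.76 to 50 FPKM (log2 3.15 ± 0.24), while the leaf subunit APL1 had 183 and 125 FPKM and was not called (q = 0.1). GPT2, which brings glucose 6-phosphate into plastids, rose from 5.41 to 19.5 FPKM (log2 1.67 ± 0.23), and GBSS1, the granule-bound starch synthase, from 8.3 to 23.5 FPKM (log2 1.40 ± 0.22). CT-BMY, a chloroplast beta-amylase, was the list's 1 fall, from 237 to 108 FPKM (log2 -1.13 ± 0.24).

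Of 35 genes of sucrose and hexose metabolism and transport, 9 (25.7%) were called higher and 8 (22.9%) lower. The shares over all genes were 8.01% and 8.0%. Among sugar exporters of the SWEET family, SWEET16 fell from 9.57 to 2.58 FPKM (log2 -1.56 ± 0.29) and SWEET11, which loads sucrose toward the phloem, from 104 to 46.8 FPKM (log2 -1.13 ± 0.22). SWEET13 and SWEET14 rose from 0.672 to 5.66 and from 0.27 to 4.27 FPKM. The sucrose carrier of the phloem, SUC2, fell from 81.3 to 52.4 FPKM (log2 -0.63 ± 0.22, q = 0.028), and SUT4 of the vacuole membrane rose from 4.19 to 11.1 FPKM (log2 1.22 ± 0.23). SUS3, a sucrose synthase, rose from 3.06 to 28.7 FPKM (log2 2.87 ± 0.23). Of the sucrose phosphate synthases, ATSPS4F fell from 53.2 to 20.6 FPKM (log2 -1.33 ± 0.23), and SPS3F rose from 1.3 to 7.05 FPKM (log2 1.81 ± 0.25). In trehalose metabolism 3 of 15 genes were called higher and 2 lower. TRE1, the enzyme that splits trehalose, rose from 1.32 to 3.39 FPKM (log2 0.92 ± 0.27), and the phosphatase TPPH fell from 3.65 to 0.757 FPKM.

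Genes of amino acid breakdown and proline synthesis were called higher in 7 (21.2%) and lower in 3 (9.09%) of 33 cases. The shares over all genes were 8.01% and 8.0%, and the list median was 0.25. MGL, which degrades methionine, rose from 7.54 to 44.3 FPKM (log2 2.41 ± 0.22). ALDH7B4 and DELTA-OAT, a stress aldehyde dehydrogenase and ornithine aminotransferase, rose from 31.2 to 78.7 FPKM (log2 1.31 ± 0.22) and from 13.9 to 30 FPKM (log2 1.05 ± 0.22). BCAT-1, an enzyme of branched amino acids, fell from 15.5 to 5.09 FPKM (log2 -1.43 ± 0.23). Amino acid transporters by RefSeq product were called higher in 8 (23.5%) and lower in 1 (2.94%) of 34 cases. Among those called higher was AAP1 with 33.6 and 86.7 FPKM (log2 1.34 ± 0.22).

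**Figure D3:**
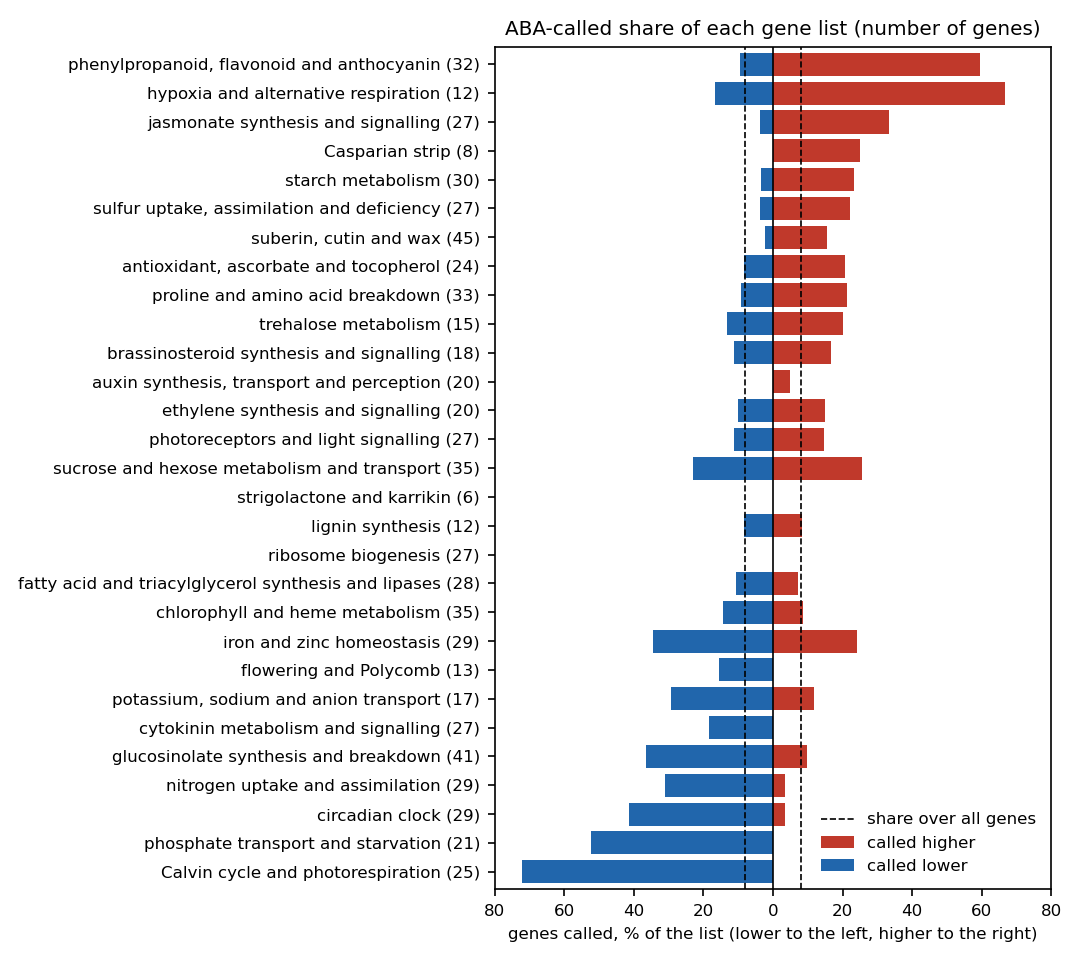
Bars give the share of each of 29 gene lists that was called lower (left, blue) or higher (right, red) with ABA, in %, with the number of genes in brackets. Dashed lines mark the shares over all genes, 8.0% and 8.01%.

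Of 21 measured phosphate genes 11 were called lower, or 52.4% against 8.0% over all genes, none was called higher and 10 were not called. The list median was -0.60, and -0.32 over its genes at 5 FPKM or more. PEPC1, a phosphatase, fell from 8.03 to 0.481 FPKM and MGDC, which makes galactolipid in place of phospholipid, from 9.35 to 0.697 FPKM. PS2, another phosphatase of the response, fell from 14.9 to 6.04 FPKM (log2 -1.18 ± 0.26). The SPX proteins, which sense phosphate state, included SPX3 with 2.59 and 0.426 FPKM and SPX1 with 45.8 and 23.9 FPKM (log2 -0.91 ± 0.22, q = 0.0019), both called lower. The root uptake carrier PHT1;1 fell from 60.1 to 31.7 FPKM (log2 -0.90 ± 0.22) and PHO1, which loads phosphate to the xylem, from 27.2 to 17.5 FPKM (log2 -0.61 ± 0.22, q = 0.026). SQD2, of sulfolipid synthesis, fell from 50.7 to 27.2 FPKM (log2 -0.88 ± 0.22), while SQD1, the most abundant gene of the list, had 65 and 54.4 FPKM and was not called (q = 0.55). PHR1 itself had 26.2 and 26.8 FPKM (log2 0.03 ± 0.21, q = 0.97). The noncoding RNA IPS1, outside the list, fell from 21.5 to 2.97 FPKM (log2 -2.51 ± 0.33).

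Over the iron and zinc list, 7 of 29 genes (24.1%) were called higher and 10 (34.5%) lower, beside 8.01% and 8.0% over all genes. Genes of root uptake that fell were IRT1, the iron carrier, from 105 to 28.8 FPKM (log2 -1.83 ± 0.25), FRO2, the ferric reductase, from 26.4 to 8.13 FPKM (log2 -1.58 ± 0.24), and their activator FRU, also called FIT, from 8.48 to 2.66 FPKM (log2 -1.37 ± 0.27). CYP82C4, an oxidase of iron-mobilising coumarins, fell from 16.3 to 3.05 FPKM (log2 -2.09 ± 0.25). Of the bHLH factors that pair with FRU, 3 rose: bHLH38 from 58 to 133 FPKM (log2 1.18 ± 0.24), BHLH100 from 102 to 205 FPKM (log2 1.01 ± 0.23) and BHLH101 from 27.5 to 44.7 FPKM (log2 0.68 ± 0.23, q = 0.018). bHLH39 had 87.3 and 126 FPKM and was not called (q = 0.12). Of the ferritins, which store iron, FER2 rose from 3.08 to 75.4 FPKM (log2 4.23 ± 0.27), whereas FER1 with 50.7 and 66.3 FPKM, FER3 with 103 and 81.8 FPKM and FER4 with 30.2 and 27.1 FPKM were not called. FER2 is the ferritin known from seeds. Outside the list the reductase FRO6 fell from 13.2 to 0.9 FPKM.

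Single genes of copper use were picked after their values were seen, with no list behind them. COPT2, a copper carrier, fell from 61.7 to 24.3 FPKM (log2 -1.31 ± 0.24), and FSD1, the iron superoxide dismutase used when copper is scarce, from 853 to 326 FPKM (log2 -1.38 ± 0.25). The copper superoxide dismutases were both called higher, CSD1 from 84.5 to 183 FPKM (log2 1.11 ± 0.28, q = 0.0019) and CSD2 from 65.1 to 111 FPKM (log2 0.76 ± 0.27, q = 0.045). Among metallothioneins MT1C fell from 1470 to 610 FPKM (log2 -1.27 ± 0.24) and MT3 from 1620 to 712 FPKM (log2 -1.18 ± 0.25). MT2A had 2440 and 3620 FPKM and MT2B 4750 and 3640 FPKM, and neither was called. AtMT4b, a seed metallothionein, went from 0.586 to 95.2 FPKM without passing the test (q = 0.082).

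Sulfur genes were called higher in 6 (22.2%) and lower in 1 (3.7%) of 27 cases, beside 8.01% and 8.0% over all genes. The list median was 0.09. The 6 that rose included markers of sulfur deficiency: LSU3 from 9.73 to 43.2 FPKM (log2 2.04 ± 0.31), ATSDI1 from 3.01 to 13.2 FPKM (log2 1.82 ± 0.27) and LSU1 from 26.3 to 54.2 FPKM (log2 1.02 ± 0.29, q = 0.0013). The other rises were those of AT1G04770 from 17.4 to 34 FPKM (log2 0.93 ± 0.22), AT5G26220 from 2.15 to 4.32 FPKM (log2 0.76 ± 0.32, q = 0.022) and BGLU28 from 0.218 to 1.05 FPKM. LSU2 had 39.9 and 47.2 FPKM and was not called (q = 0.65). APR1, APR2 and APR3, the reductases of sulfate assimilation, had log2 changes of -0.08, -0.05 and 0.08, none of them called. SULTR3;5, of the sulfate carrier family, fell from 7.58 to 4.82 FPKM (log2 -0.56 ± 0.23, q = 0.034).

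Nitrogen genes fell in 9 (31.0%) and rose in 1 (3.45%) of 29 cases, beside 8.0% and 8.01% over all genes. The list median was -0.15. The ammonium carriers AMT1;3 and AMT1;2 fell from 15.8 to 4.84 FPKM (log2 -1.52 ± 0.23) and from 46.4 to 19.3 FPKM (log2 -1.22 ± 0.22). GLU1, the ferredoxin-dependent glutamate synthase of leaves, fell from 316 to 172 FPKM (log2 -0.87 ± 0.26, q = 0.0049). The nitrate reductases were not called, NIA2 with 543 and 532 FPKM and NIA1 with 207 and 279 FPKM. GLN1.3, a cytosolic glutamine synthetase, was the 1 rise, from 56 to 100 FPKM (log2 0.83 ± 0.22, q = 0.0013). Of 25 nitrate and peptide transporters 6 were called higher and 5 lower. NRT1.5, which loads nitrate to the xylem, fell from 91.4 to 32.6 FPKM (log2 -1.46 ± 0.22). Among potassium, sodium and anion carriers 2 of 17 (11.8%) were called higher and 5 (29.4%) lower. HAK5, a high-affinity potassium carrier, rose from 0.588 to 3.55 FPKM. SKOR, which releases potassium to the xylem, fell from 2.81 to 1.03 FPKM (log2 -0.91 ± 0.31, q = 0.003).

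**Figure D4:**
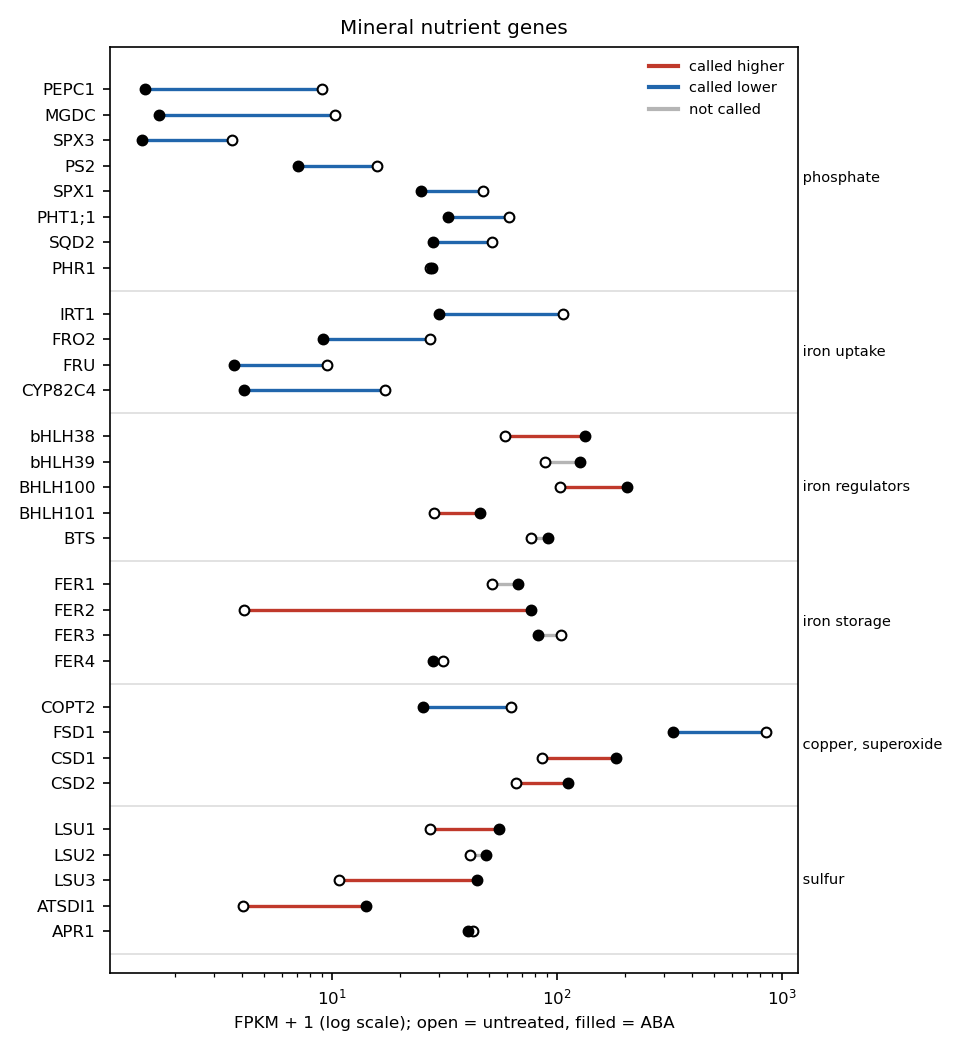
Mineral nutrient genes are grouped by element and role, with open circles for untreated and filled circles for ABA-treated Col-0 on a log axis of FPKM + 1, and line colour for the call. IRT1, FRO2, FRU and CYP82C4 moved left, while bHLH38, BHLH100, BHLH101 and FER2 moved right.

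Glucosinolates are sulfur-rich defence compounds of the cabbage family. Of 41 genes of their synthesis and breakdown 15 (36.6%) were called lower and 4 (9.76%) higher, with a median of -0.39. The shares over all genes were 8.0% and 8.01%. Calls were not counted by branch. In the branch that starts from methionine, CYP79F2 fell from 21.8 to 7.34 FPKM (log2 -1.45 ± 0.23) and CYP83A1 from 114 to 38.7 FPKM (log2 -1.53 ± 0.26). MAM1, which lengthens the methionine chain, fell from 68.8 to 32.8 FPKM (log2 -1.04 ± 0.25). MYB29 and MYB28, activators of this branch, fell from 8.66 to 3.28 FPKM (log2 -1.17 ± 0.28) and from 38.5 to 23.8 FPKM (log2 -0.67 ± 0.23, q = 0.021). In the branch from tryptophan, CYP79B2 rose from 26.4 to 39.7 FPKM (log2 0.57 ± 0.22, q = 0.047), while CYP79B3 with 29 and 27.1 FPKM, CYP83B1 with 66.9 and 82.9 FPKM and MYB34 with 24.8 and 34.4 FPKM were not called. Breakdown genes split. ESM1, which favours isothiocyanates, fell from 175 to 51.5 FPKM (log2 -1.75 ± 0.23), and ESP, which favours nitriles, rose from 3.21 to 10.5 FPKM (log2 1.45 ± 0.26). The myrosinase TGG1 fell from 782 to 441 FPKM (log2 -0.82 ± 0.26, q = 0.012), while TGG2 rose from 39.7 to 82.6 FPKM (log2 1.04 ± 0.23).

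Jasmonate is the hormone of wounding and insect defence. Of 27 jasmonate genes 9 (33.3%) were called higher and 1 (3.7%) lower, beside 8.01% and 8.0% over all genes. The median was 0.20 over the jasmonate list. LOX2, a lipoxygenase at the start of its synthesis, rose from 46.5 to 113 FPKM (log2 1.26 ± 0.24). The response genes VSP2 and VSP1 rose from 4.99 to 21.2 FPKM (log2 1.89 ± 0.23) and from 1.91 to 4.9 FPKM (log2 1.02 ± 0.31, q = 0.0013). CYP94B3, which inactivates the active hormone, rose from 1.21 to 10.9 FPKM (log2 2.43 ± 0.27). Of the JAZ repressors JAZ1 rose from 10.4 to 22.7 FPKM (log2 1.05 ± 0.22), and JAZ4 fell from 3.38 to 0.947 FPKM.

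Of 29 clock genes 12 (41.4%) were called lower and 1 (3.45%) higher, beside 8.0% and 8.01% over all genes. The list median was -0.53. CDF3 and CDF1, DOF repressors read by the clock, fell from 31.7 to 6.84 FPKM (log2 -2.06 ± 0.22) and from 21 to 6.88 FPKM (log2 -1.48 ± 0.23). The afternoon and evening genes GI, PRR5 and PRR7 fell from 29.4 to 12.3 FPKM (log2 -1.19 ± 0.23), from 73.9 to 32.6 FPKM (log2 -1.16 ± 0.23) and from 39.3 to 18.4 FPKM (log2 -1.06 ± 0.23). The morning gene LHY rose from 1.63 to 3.72 FPKM (log2 0.84 ± 0.26), while its partner CCA1 had 3.96 and 4.23 FPKM (q = 0.91). TOC1 with 72.8 and 61.5 FPKM, ELF3 with 30.1 and 27.5 FPKM and ELF4 with 412 and 335 FPKM were not called. The hour of harvest is not given in the labels, and a shift in time cannot be told apart from a change in level.

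B-box factors are zinc finger proteins of light signalling. None of 26 was called higher and 10 (38.5%) were called lower, beside 8.01% and 8.0% over all genes. Their median was -0.60. BBX16 fell from 4.27 to 0.409 FPKM, BBX28 from 47.4 to 13.8 FPKM (log2 -1.71 ± 0.23) and COL2 from 10.8 to 3.98 FPKM (log2 -1.24 ± 0.25). STO fell from 159 to 74.6 FPKM (log2 -1.08 ± 0.22), and CO, the flowering regulator CONSTANS, from 2.75 to 0.892 FPKM (q = 0.0024). COL4, the most abundant, had 191 and 149 FPKM and was not called (q = 0.36). Among 27 photoreceptor and light-signalling genes 4 (14.8%) were called higher and 3 (11.1%) lower. PHYA, the far-red photoreceptor, rose from 24.9 to 50.6 FPKM (log2 1.00 ± 0.23) and its import factor FHL from 0.774 to 3.28 FPKM (q = 0.0044). The growth factors of the PIF family split, with PIF3 up from 12.5 to 30.6 FPKM (log2 1.22 ± 0.22), and PIF7 and PIF4 down from 12.2 to 5.3 FPKM (log2 -1.07 ± 0.24) and from 25.6 to 16.5 FPKM (log2 -0.61 ± 0.22, q = 0.035).

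**Figure D5:**
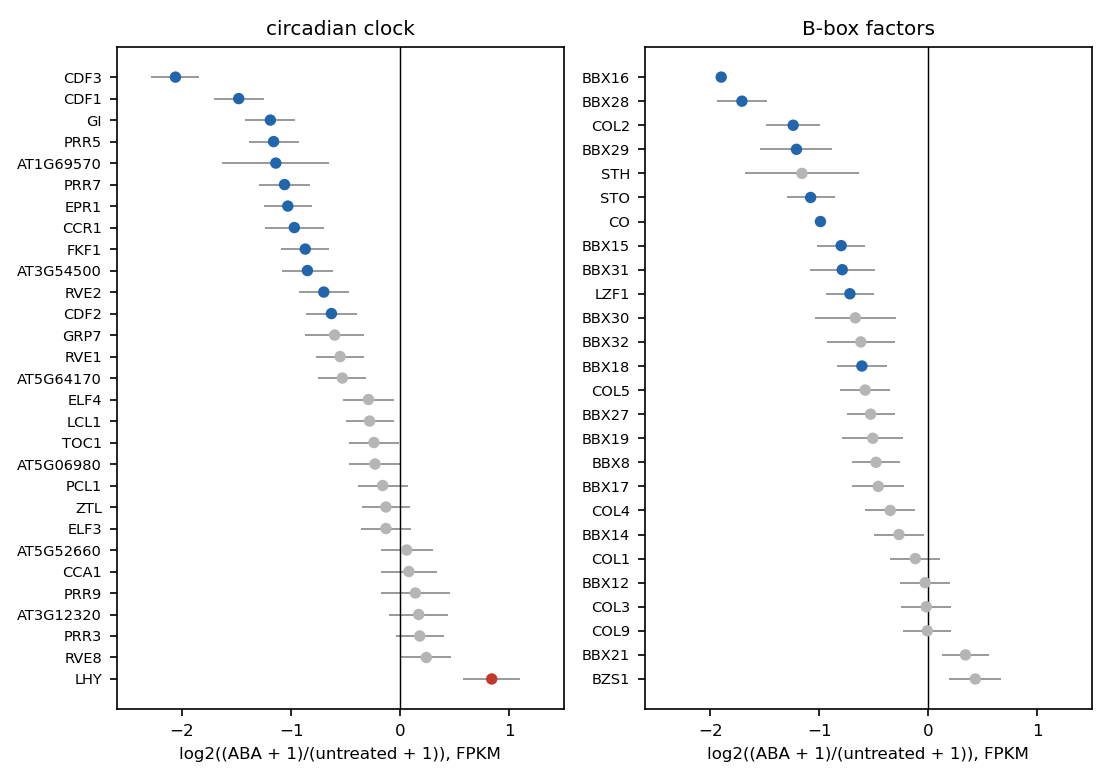
Points give log2((ABA + 1)/(untreated + 1)) of every measured clock gene (left) and B-box gene (right), with bars of 1 SE of the plain log2 ratio. Points without a bar had a group below 1 FPKM; blue was called lower, red higher and grey not called, and LHY is the only red point.

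Of 25 genes of the Calvin cycle and photorespiration 18 (72.0%) were called lower and none higher. At a q under 0.01 the count of lower calls was 10. The share called lower was 8.0% over all genes and 20.3% over genes at 100 FPKM or more. Every one of the 25 had a negative value, from -1.48 to -0.41, and the median was -0.79. RBCS1B, a small subunit of Rubisco, fell from 3450 to 1580 FPKM (log2 -1.13 ± 0.27), and CP12-2, which binds Calvin cycle enzymes in the dark, from 1450 to 682 FPKM (log2 -1.09 ± 0.24). FBA5, an aldolase outside the list, fell from 903 to 143 FPKM (log2 -2.65 ± 0.24). In chlorophyll and heme metabolism 3 of 35 genes (8.57%) were called higher and 5 (14.3%) lower, beside 8.01% and 8.0% over all genes. PORA, the protochlorophyllide reductase of dark-grown seedlings, rose from 0.12 to 16.7 FPKM, while GUN5, a subunit of magnesium chelatase, fell from 423 to 182 FPKM (log2 -1.21 ± 0.26). NYC1 and NYE1, both of chlorophyll breakdown, moved apart, from 104 to 44.2 FPKM (log2 -1.22 ± 0.23) and from 8.5 to 15.4 FPKM (log2 0.79 ± 0.23, q = 0.003).

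Genes of low oxygen and alternative respiration were called higher in 8 (66.7%) and lower in 2 (16.7%) of 12 cases. The shares over all genes were 8.01% and 8.0%, and the list median was 1.27. ADH1, alcohol dehydrogenase, rose from 5.62 to 73.3 FPKM (log2 3.49 ± 0.42), LBD41 from 6.23 to 65.4 FPKM (log2 3.20 ± 0.24) and HB1 (AT2G16060), a plant hemoglobin, from 13.4 to 30 FPKM (log2 1.1 ± 0.23). AT5G15120 and AT5G39890, chosen for the list as enzymes of the oxygen-sensing pathway, rose from 3.97 to 23.5 FPKM (log2 2.30 ± 0.25) and from 4.21 to 14.7 FPKM (log2 1.59 ± 0.25). The alternative oxidases split: AOX2 was listed at 0 untreated and had 6.28 FPKM with ABA, and AOX1A fell from 34.4 to 20.7 FPKM (log2 -0.70 ± 0.22, q = 0.011).

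Small redox proteins were counted by product. RefSeq names 19 of the genes "Glutaredoxin family protein" and 44 "Thioredoxin superfamily protein", and these groups were set up after the values had been seen. Of the first 5 (26.3%) were called lower and none higher, and of the second 14 (31.8%) were lower and 3 (6.82%) higher, beside 8.0% lower and 8.01% higher over all genes. Chosen after the values, these counts are a description only. AT2G47880 fell from 26 to 1.12 FPKM (log2 -3.67 ± 0.39) and AT3G21460 from 11.9 to 1.28 FPKM (log2 -2.50 ± 0.42). In a run of 5 genes side by side on the plus strand (AT4G15660 to AT4G15700, chromosome 4, bases 8925571 to 8938124 of TAIR10.1, with no other annotated gene between them), all 5 were called lower, by -1.52 to -2.31 on the log2 scale. Near-identical copies in such a run can share reads, so the value of each is uncertain, and these 5 are among the 14 called lower. Against this direction GRXC1, a glutaredoxin, rose from 38.1 to 210 FPKM (log2 2.43 ± 0.24).

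Among 42 glutathione S-transferases 10 (23.8%) were called higher and 10 (23.8%) lower, beside 8.01% and 8.0% over all genes. GSTF6 rose from 12.7 to 170 FPKM (log2 3.64 ± 0.23), GSTF14 fell from 35.2 to 0.788 FPKM and GSTL1 from 10.8 to 1.5 FPKM (log2 -2.24 ± 0.31). In the antioxidant list 5 of 24 genes (20.8%) were called higher and 2 (8.33%) lower. DHAR1, which recycles ascorbate, rose from 164 to 366 FPKM (log2 1.15 ± 0.24), and G-TMT, the last enzyme of alpha-tocopherol synthesis, from 11.3 to 34.3 FPKM (log2 1.52 ± 0.29). The catalases CAT1 (AT1G20630), CAT2 (AT4G35090) and CAT3 (AT1G20620) had log2 changes of -0.02, -0.04 and -0.03, and none was called. Of 51 peroxidases by product 7 (13.7%) were higher and 11 (21.6%) lower, among them AT5G64120 with 132 and 14.2 FPKM (log2 -3.13 ± 0.22).

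Lipid transfer proteins, which carry wax and cutin parts or act in defence, were called higher in 5 and lower in 2 of 11 cases. This is 45.5% and 18.2%, beside 8.01% and 8.0% over all genes. LTP2 rose from 265 to 3320 FPKM (log2 3.64 ± 0.25) and LTP4 from 1.05 to 39.9 FPKM (log2 4.32 ± 0.41), whereas LTP5 fell from 1150 to 534 FPKM (log2 -1.1 ± 0.24). In the suberin, cutin and wax list 7 of 45 genes (15.6%) were called higher and 1 (2.22%) lower. At a q under 0.01 these counts were 4 and 0. FAR1, which makes fatty alcohols of suberin, rose from 4.28 to 35.1 FPKM (log2 2.77 ± 0.23) and CER1, of wax alkanes, from 9.24 to 27.2 FPKM (log2 1.46 ± 0.22). Of 8 genes of the Casparian strip, CASP5 rose from 2.36 to 6.7 FPKM (log2 1.2 ± 0.32) and its regulator MYB36 from 3.19 to 5.51 FPKM (log2 0.64 ± 0.27, q = 0.026). CASP1, CASP2, CASP4, ESB1 and GSO1 were not called, with log2 changes from -0.26 to 0.35. Annexins, calcium-binding membrane proteins, rose in 4 of 5 cases: ANNAT1 from 197 to 348 FPKM (q = 0.0062), ANNAT2 from 67.3 to 129 FPKM, ANNAT4 from 25.2 to 51.4 FPKM and ANNAT7 from 2.38 to 6.1 FPKM. ANNAT3, with 5.82 and 7.8 FPKM, was not called (q = 0.28).

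Counts in the other hormone lists are given beside the 8.01% called higher and 8.0% called lower over all genes. No difference between the lists was tested. Cytokinin genes were called lower in 5 (18.5%, 2 genes at 5 FPKM or more) and higher in none of 27 cases, with a median of -0.28. They included CYP735A2, which makes zeatin forms, with 2.87 and 0.603 FPKM, the synthesis gene IPT5 with 4.76 and 1.71 FPKM (log2 -1.09 ± 0.28) and the response regulator ARR4 with 118 and 67.2 FPKM (log2 -0.80 ± 0.22, q = 0.0049). Auxin synthesis, transport and perception had 1 call in 20 genes (5.0%) and 0 at a q under 0.01. The call was EIR1, the carrier PIN2, with 14.3 and 23.1 FPKM (log2 0.66 ± 0.22, q = 0.018). Of 60 SAUR genes, small genes quickly induced by auxin, 4 were called higher and 12 lower, and AT2G21210 fell from 213 to 69.5 FPKM (log2 -1.60 ± 0.23). IAA20, a repressor of auxin response, rose from 0.634 to 6.13 FPKM. Ethylene genes had 3 higher and 2 lower calls in 20, with the synthesis gene ACS7 up from 1.06 to 3.83 FPKM (log2 1.23 ± 0.30) and ACS6 down from 16.6 to 10 FPKM (log2 -0.68 ± 0.24, q = 0.026). In the brassinosteroid list 3 (16.7%) of 18 were called higher and 2 (11.1%) lower, with 1 lower call at a q under 0.01. EXO rose from 36.9 to 174 FPKM (log2 2.21 ± 0.23). PRE1, a growth factor of the bHLH kind, fell from 7.26 to 2.57 FPKM (log2 -1.21 ± 0.32, q = 0.0013). None of 6 strigolactone and karrikin genes was called by the deposited test. Of those 6 genes 1 had an unadjusted p under 0.05.

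Families were matched by RefSeq symbol, and a few members have another product, such as the hemoglobins HB1 (AT2G16060) and HB2 and the acetyltransferase HAG1 among the homeodomain factors. HB1 is among the homeodomain genes counted as higher. Of 57 NAC genes 12 (21.1%) were called higher and 5 (8.77%) lower, beside 8.01% and 8.0% over all genes. NAC060 rose from 0.107 to 3.17 FPKM (q = 0.015) and NAC089 from 5.57 to 23 FPKM (log2 1.87 ± 0.24). Of 51 WRKY genes 6 (11.8%) were higher and 2 (3.92%) lower, and 3 were higher at a q under 0.01. The largest rise was that of WRKY18, a regulator of defence, with 6.93 and 34.5 FPKM (log2 2.16 ± 0.24). Homeodomain factors were higher in 11 (20.4%) and lower in 3 (5.56%) of 54 cases, and in 6 and 1 at a q under 0.01. Among those called higher was HB-7 (AT2G46680) with 15 and 58.6 FPKM (log2 1.90 ± 0.22). Of 39 ethylene response factors 5 (12.8%) were higher and 8 (20.5%) lower, and ERF15 fell from 9.3 to 3.08 FPKM (log2 -1.34 ± 0.28). Cytochrome P450 genes, a large family of oxidases, were called higher in 44 and lower in 25 of 148 cases, or 29.7% and 16.9%, and in 27 and 16 cases at 5 FPKM or more. UDP-glycosyltransferases were higher in 10 (19.2%) and lower in 3 (5.77%) of 52. The kinase CIPK20 fell from 42.8 to 8.67 FPKM (log2 -2.18 ± 0.24) and BT5, an adaptor protein, from 44.2 to 14.5 FPKM (log2 -1.55 ± 0.23).

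Several large groups held few calls beside the 8.01% higher and 8.0% lower over all genes. Of 305 ribosomal protein genes 1 (0.328%) was called higher and 10 (3.28%) lower, with a median of -0.16. A further 38 ribosomal protein genes had an unadjusted p under 0.05 by the deposited test and were not called. At a q under 0.01 the lower count of ribosomal proteins was 1. Of 199 pentatricopeptide repeat proteins, which process organelle RNA, 1 (0.503%) was lower and none higher. None of 27 genes of ribosome biogenesis, 24 calcium-dependent kinases and 8 cellulose synthases was called by the deposited test. At an unadjusted p under 0.05 there were 1, 4 and 0 of them. Of 52 C2H2 zinc finger genes 2 (3.85%) were called lower, and 0 at a q under 0.01. Of 128 F-box genes 5 (3.91%) were higher and 2 (1.56%) lower.

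Values of the nup1-1 ABA comparison, which shares no library with that of Col-0, are set beside these without a test of the difference. There 47.4% of 19525 genes were called, 21.7% higher and 25.7% lower, so a like share in nup1-1 means less against its own background. Of 3028 single-locus genes called in Col-0, 2564 were also called in nup1-1, 2447 the same way and 117 the opposite way. The flavonoid list had 22 of 32 genes called higher and 7 lower there, with DFR at 2.94 and 109 FPKM. Phosphate genes were called lower in 10 and higher in 1 of 21, and clock genes lower in 18 and higher in 2 of 28. Values that went opposite ways were found in the iron regulators, where bHLH38 was 94 untreated and 59.7 FPKM with ABA in nup1-1, and BHLH100 135 and 46.4 FPKM. FSD1 was 543 and 918 FPKM, CSD1 103 and 72.5 FPKM, TGG2 199 and 66 FPKM, LOX2 166 and 44.8 FPKM and VSP2 33.2 and 12.4 FPKM, each called in the direction opposite to Col-0.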

How the data were processed

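RNA of 5-day-old seedlings was sequenced in 12 libraries. Read checks by FastQC, trimming by Trimmomatic and mapping by TopHat, with the build TAIR10, are known per the submitters' processing notes. Their versions and the program behind the tables were not stated in those sources. The authors deposited, per the file headers, 1 value per group and gene, taken as FPKM, and a test statistic, treated here as a score. They also deposited a p-value and a q-value for each comparison. The headers do not name the unit of the group values. FPKM was inferred, in part from the dependence of these values on gene length. The deposited q-values differ from a Benjamini-Hochberg adjustment over tested rows by at most 5e-07. All FPKM, p and q printed are from the authors' deposited table. No value per library was used, so the depth is unknown and no SD is given.

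Computed here (Python 3.11.15, pandas 2.3.3, numpy 2.4.6, scipy 1.17.1) were log2 changes with a pseudocount of 1 FPKM and standard errors from the deposited statistic times 1.7434, the factor that brings it to a normal deviate. This step was run on simulated data whose statistic was a scaled normal deviate by construction. Whether the deposited statistic is one was not tested. No SE is printed where a group was below 1 FPKM. Symbols, products, promoters and gene starts are from RefSeq on TAIR10.1; the table's 265 included rows that join several loci were left out of lists, and gene starts there can differ from those of the table. Promoters were cut from the genome itself and not from a prepared promoter table.

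The included genes and lists were chosen with earlier results of these data known. Named by rule were, in each list, up to 3 called genes with the highest and 3 with the lowest change, the most abundant gene, and all genes of lists of at most 8, and outside the lists the 10 largest rises and 10 largest falls at 10 FPKM or more; any other gene named was chosen after its values were seen. Families by RefSeq product were set up with the files at hand.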

Additional observations from a re-analysis of the deposited data

How the results depend on the processing

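Of the genes called higher and lower (1529 and 1527), 1097 and 1012 were called at a q under 0.01, and 701 and 541 were called with an absolute log2 change of at least 1. Without the filter on FPKM there were 1591 and 1583, at 5 FPKM or more 1150 and 1269, and with p adjusted over the included genes alone 1540 and 1535. The median over all genes was -0.02 with 1 FPKM added, with 0.1 FPKM added (-0.022) and with none (-0.023). The centring and the smaller pseudocount reversed no called gene among the 568 named by rule. Medians of all 104 lists and families moved by less than the median SE under both of these settings, and 6 moved by more at 5 FPKM or more, among them that of the phosphate list, to -0.32. Counts within lists moved more: by over 1.5 times, 24 of the 104 higher and 33 of the lower counts at a q under 0.01, and 25 and 20 at 5 FPKM or more. Of the 568 genes, 5 that were not called, AtMT4b among them, moved by more than the median SE with 0.1 FPKM added. No paired analysis was possible because the tables hold 1 value per group, and for the same reason leaving out each replicate was not run. Genes below about 1 FPKM, joined rows and neighbouring gene copies are where the deposited values say least.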

Other observations

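Outside every list, 479 genes at 10 FPKM or more were called higher and 690 lower. Left out of these, by symbol or product name, were the usual ABA, seed, photosynthesis and wall genes. Such matching can leave in genes of those groups that carry another name. NEET, an iron-sulfur protein of organelles, fell from 464 to 43 FPKM (log2 -3.40 ± 0.28), and in nup1-1 it was 28.2 untreated and 3.73 FPKM with ABA. GulLO2, by its RefSeq product an oxidase of the arabinonolactone family, fell from 13.6 to 1.56 FPKM (log2 -2.52 ± 0.27), and RL4, a RAD-like factor, from 54.2 to 8.56 FPKM (log2 -2.53 ± 0.28). AT2G43140, a bHLH protein by product, fell from 11.2 to 0.699 FPKM, and AT2G15020, AT1G67865 and AT5G54585, with no known product, from 25.8 to 3.52, from 32.5 to 4.65 and from 19.9 to 1.78 FPKM. AT2G15020 was 0.881 FPKM in untreated nup1-1.

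The largest rises of that kind included ATOEP16-2, by product a member of the Tim17/Tim22/Tim23 family, from 0.498 to 142 FPKM, and AT5G07330, annotated as an iron-sulfur cluster protein, from 0.783 to 242 FPKM. AT1G68250, of unknown product, rose from 5.33 to 1140 FPKM (log2 7.49 ± 0.32) and AT1G04560, of the AWPM-19 family, from 1.45 to 562 FPKM (log2 7.85 ± 0.35). AT5G35660, a glycine-rich protein, had 0.0916 and 134 FPKM (q = 0.024). The microRNA locus MIR157c was listed at 0 untreated and had 226 FPKM with ABA (q = 0.013), and was listed at 0 in both nup1-1 groups. FPKM of so short a locus is uncertain.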
